A study of Polyandrocarpa zorritensis and Clavelina lepadiformis with 36 samples.

Results

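*Clavelina lepadiformis* is a colonial ascidian, a sessile marine chordate that makes new zooids asexually from its stolons. Transcripts of its germinating winter buds were set against those of its budding chambers, called pre-buds here. A transcript was taken as a member of the comparison where its mean was at least 5 TMM-scaled TPM in the higher of the 2 stages. This kept 11953 of 18610 assembled transcripts, or 64.2%. TPM is a level corrected for transcript length and library size, and TMM is a scaling that sets libraries on a common footing. The transcripts nearest the minimum had 5.00 inside and 4.999 outside it.

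The series holds 36 RNA samples of 2 tunicates, *C. lepadiformis* and *Polyandrocarpa zorritensis*, in 5 stages each. For *C. lepadiformis* the labels list 6 germinating samples, 3 at 18 °C and 3 at 24 °C for 48 h, and 3 samples each of pre-bud, dormant, stolon and zooid tissue. All tissue of this species came from 1 colony kept in the lab, and each replicate pooled at least 3 specimens, so neither stage speaks for other colonies. The values analysed are 1 mean per stage, with germination at both temperatures averaged together. The labels give no temperature for pre-buds, and the paper kept colonies of this species at 18 °C. Temperature therefore differed in part between the 2 stages, and its share in the differences cannot be told apart. Neither the number of libraries behind each mean nor their depth or replicate spread was available to this comparison. Differences are therefore given without an error or a p-value and cannot be set against replicate spread.

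Pre-buds are lobed outgrowths of the stolon that either make a bud directly or fill with reserve cells and become dormant winter buds. A germinating winter bud leaves that dormant state and starts to build a zooid, so both stages stand at the start of a new body, one before dormancy and one after it. The comparison asks how tissue that comes out of dormancy differs from the tissue in which budding or dormancy begins. Cells that build a body in this way divide, make ribosomes and proteins, lay down matrix and take up or mobilise nutrients. Some of the gene groups below cover those roles and others do not. All were chosen with earlier results of these data known. In whole tissue, a lower level can come from fewer cells of a type or from less RNA per cell, and these cannot be told apart.

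At least 2-fold higher levels in germinating tissue were found for 1252 members, 10.5% of those measured, and at least 2-fold lower levels for 1246, or 10.4%. Another 9455, or 79.1%, lay within 2-fold. The log2 difference used throughout is log2((germinating + 1)/(pre-bud + 1)), in which the added 1 shrinks the difference of transcripts near the minimum. Its median over all members was -0.0082, and its middle 90% ran from -1.60 to 1.52. At least 8-fold differences were rarer, with 100 members higher and 137 lower. The share at least 2-fold higher grew with level, and was 7.68% of members whose higher mean lay between 5 and 20, but 25.2% of the 143 whose higher mean reached 1000.

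**Figure D1:**
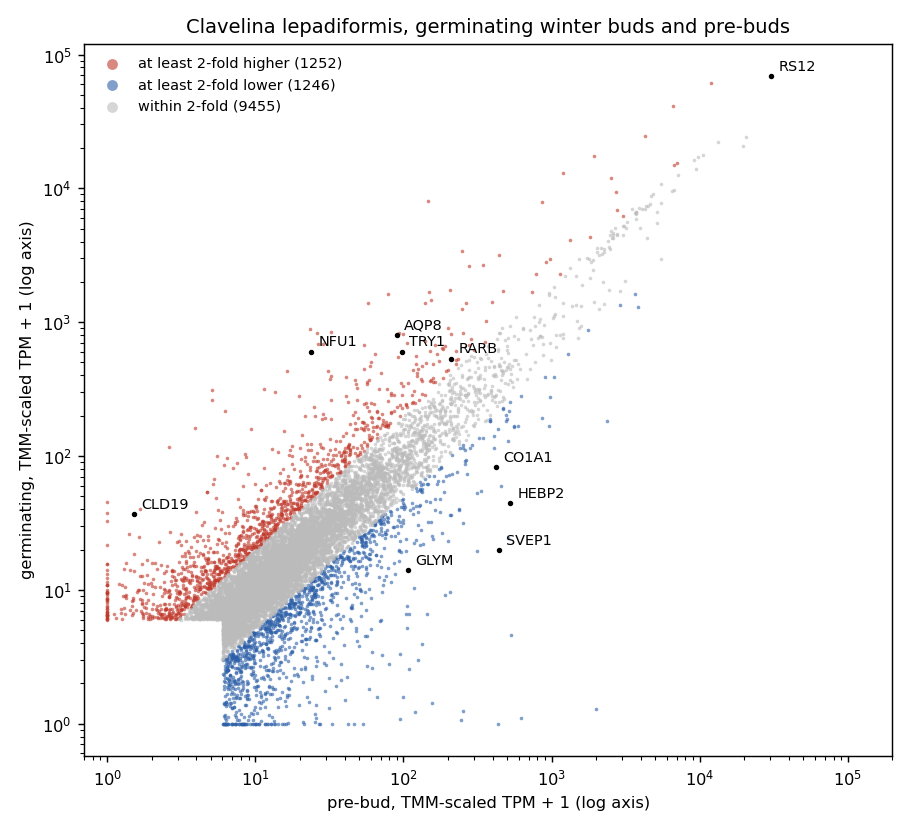
Mean level of each of the 11953 members in germinating tissue (vertical, TMM-scaled TPM + 1, log axis) against pre-buds (horizontal, same unit, log axis), 1 point per transcript. Red points are the 1252 at least 2-fold higher, blue the 1246 at least 2-fold lower and grey the 9455 within 2-fold. RS12 lies at the top right with 68676 in germinating tissue and 30371 in pre-buds.

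The scaling decides how these counts divide. After the authors' TMM scaling the values of all transcripts summed to 1274782 in germinating tissue and 845295 in pre-buds. With both stages rescaled to equal sums, the median log2 difference of all members moved to -0.59, with 524 members at least 2-fold higher and 3091 lower. Of the difference in sums, 47.7% lay in 10 transcripts, among them 3 with a name, all ribosomal proteins. RS12 alone held 8.92% of it. Changes below are therefore read against the median of all members, and a group whose direction turns under equal sums is marked as such. Such a turn is one of sign, and a list median under equal sums is given beside the -0.59 of all members, most of which have no name.

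A name was available for 2974 members through the table of ortholog pairs, and 2516 of these names were human protein entries. Named members were not a random sample of all members. Among human-named members 5.21% were at least 2-fold higher and 10.3% at least 2-fold lower, with a median log2 difference of -0.19 and 60.5% below 0, while with names of any species 5.85% were higher, and among unnamed members 12.0% were higher and 10.3% lower. The counts within each gene list below are read against the human-named shares of 5.21% higher and 10.3% lower. Under other settings list values stand beside those of all members, since no human-named value is given there. Such a baseline can lie too high, as the 2574 ortholog pairs measured in both species had a median of -0.73 under equal sums. A name is the best match of a transcript, written here as its UniProt entry name, and does not prove orthology.

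Among named transcripts with higher levels in germinating tissue, the largest difference was that of NFU1, a mitochondrial iron-sulfur cluster protein. Its mean was 600.1 TMM-scaled TPM in germinating tissue, against 22.8 in pre-buds, with 64.3 in dormant, 18.5 in stolon and 78.4 in zooid tissue, and its log2 difference was 4.66. Germinating tissue was the highest of the 5 stages. AQP8, a water channel, had 807.0 in germinating tissue and 88.8 in pre-buds, a log2 difference of 3.17, beside 201.5 in dormant tissue and 7.65 in zooids. MIOX, which opens the ring of myo-inositol, had 199.5 in germinating tissue and 20.6 in pre-buds. GRB7, an adaptor of receptor tyrosine kinases, had 187.6 in germinating tissue and 27.0 in pre-buds. Both were higher in germinating tissue than in the other 4 stages.

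Another pattern among the highest differences joined germinating tissue with the zooid. CLD19, a claudin of tight junctions, had 35.8 in germinating tissue and 0.516 in pre-buds, a log2 difference of 4.60, and 297.4 in zooids. This value belongs to 1 transcript of a Trinity gene with 5, and the summed level of that gene was 327.4 in germinating tissue and 280.5 in pre-buds, a log2 difference of 0.22. TPPP2, a tubulin-binding protein, had 61.1 in germinating tissue and 4.20 in pre-buds, a log2 difference of 3.58, and 290.6 in zooids.

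In the other direction, the lowest named human entry was SVEP1, a large adhesion protein of the extracellular matrix. It had 18.7 in germinating tissue against 437.9 in pre-buds, a log2 difference of -4.48, and 96.0 in dormant, 386.3 in stolon and 8.09 in zooid tissue. Pre-bud and stolon were the high stages for SVEP1. HEBP2, a heme-binding protein, had 43.5 in germinating tissue and 523.5 in pre-buds, a log2 difference of -3.56, and stood at 477.4 in dormant and 1210 in zooid tissue. The histone variant entry H2AZ had 1.80 in germinating tissue and 36.8 in pre-buds. The 3 lowest differences overall among named transcripts, from -5.02 to -6.60, belonged to uncharacterised *Ciona* entries, of which H2YHQ3 had 0.229 in germinating tissue and 118.0 in pre-buds.

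The most extreme differences lay among transcripts without a name. TRINITY_DN3788_c0_g1_i1 had 0.283 in germinating tissue and 1985 in pre-buds, a log2 difference of -10.60, with 9.86 in dormant, 456.8 in stolon and 1148 in zooid tissue, and TRINITY_DN3788_c0_g1_i6 of the same gene had 0.102 against 616.3. TRINITY_DN854_c0_g1_i16 had 8075 in germinating tissue and 144.3 in pre-buds, and TRINITY_DN6264_c0_g1_i5 had 311.3 and 4.13, in that order of stages. A value of 0 was listed for 45 members in pre-buds and for 65 in germinating tissue, none of them named, and no fold is given for those.

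Ribosomal proteins, the structural parts of the cytosolic ribosome, were higher as a group, by less than 2-fold in most cases. Of 41 measured members, 41 lay above 0 and 3 were at least 2-fold higher, 7.32% beside 5.21% of human-named members, with a median log2 difference of 0.75 and a range of 0.35 to 1.18. Under equal sums their median was 0.16, 32 of 41 lay above 0 and none was 2-fold higher. RS12 had 68676 in germinating tissue and 30371 in pre-buds, with 30484 in dormant, 24085 in stolon and 18087 in zooid tissue. RL37A had 14871 in germinating tissue and 6739 in pre-buds, a log2 difference of 1.14. RS16 had 6250 in germinating tissue and 3049 in pre-buds, and RS2, the member with the smallest difference, had 5037 and 3942 in that order. Each of the 41 was highest in germinating tissue among the 5 stages. Together they made up 26.0% of the summed level in germinating tissue and 21.9% in pre-buds, a share that does not depend on the scaling between stages, beside 18.7% in dormant, 18.9% in stolon and 13.5% in zooid tissue.

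Proteins that assemble ribosomes went the other way. Ribosome biogenesis factors process ribosomal RNA and build the subunits in the nucleolus. Of 58 measured, 0 were at least 2-fold higher and 11 at least 2-fold lower, 19.0% beside 10.3% of human-named members, with a median log2 difference of -0.60 and 52 below 0. PWP1, a factor of ribosomal RNA synthesis, had 5.36 in germinating tissue and 17.4 in pre-buds, a log2 difference of -1.54. That of its whole Trinity gene was -0.99. The pseudouridylation partners GAR1 and DKC1 had 41.6 and 27.8 in germinating tissue, against 121.0 and 69.0 in pre-buds. DDX18 and DDX21, nucleolar helicases, had differences of -1.50 and -1.24, and BOP1, which matures the large subunit, had 3.77 in germinating tissue and 9.89 in pre-buds. Pre-bud was the highest of the 5 stages for 34 of the 58. Mitochondrial ribosomal proteins stood apart from both groups, with 9 of 18 above 0 and a median of 0.03, or -0.51 under equal sums.

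The machinery that uses ribosomes resembled the assembly factors rather than the ribosomal proteins. Translation factors and tRNA synthetases, which load amino acids onto tRNAs, had 0 of 45 members at least 2-fold higher and 13 at least 2-fold lower, 28.9% beside 10.3%, with a median of -0.60. SYEP, the glutamyl-prolyl tRNA synthetase, had 4.16 in germinating tissue and 17.0 in pre-buds, a log2 difference of -1.80. SYK, the lysyl tRNA synthetase, had 13.7 in germinating tissue and 48.4 in pre-buds, and SYCC, its cysteinyl counterpart, had 5.50 and 16.8. IF4B and EIF3L, both initiation factors, differed by -1.48 and -1.39, and the release factor ERF3A by -1.40. Summed over their Trinity genes, IF4B differed by -0.85 and EIF3L by -0.95. The summed level of the list was nevertheless higher in germinating tissue, at 4133 against 3874 in pre-buds, and 11 of the 45 lay above 0.

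RNA splicing factors had 0 of 45 members at least 2-fold higher and 5 at least 2-fold lower, 11.1%, near the share of human-named members, although their median was -0.53. The 5 were QKI, RBM8A, ROA3, HNRPQ and PRP19, with differences of -1.44 to -1.02. HNRPQ and PRP19 came to -0.99 and -0.87 with a pseudocount of 5. The Trinity gene of ROA3 differed by -0.58 in all, since its other transcript differed by 1.74. RBM8A, part of the exon junction complex, had 79.0 in germinating tissue and 173.4 in pre-buds. Proteasome subunits, which degrade tagged proteins, had 0 of 20 members past 2-fold in either direction, beside 15.5% of human-named members. Their median was -0.40, with 18 of 20 below 0. Chromatin modifiers also had 0 of 37 past 2-fold, beside the same 15.5%, although their median of -0.20 was close to that of human-named members.

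Of 39 cell cycle and DNA replication genes measured, 0 were at least 2-fold higher and 9 at least 2-fold lower, 23.1% beside 10.3% of human-named members, with 37 below 0 and a median of -0.53. A minimum of 10 in the higher stage, which drops the least abundant members, raised the lower share to 40.0%, and a pseudocount of 5 reduced it to 7.69%. Of the list, 11 of the 50 named transcripts stayed under the minimum in both stages. PCNA, the sliding clamp of DNA polymerase, had 21.6 in germinating tissue and 53.6 in pre-buds, with 19.1 in dormant, 26.5 in stolon and 53.4 in zooid tissue, a log2 difference of -1.27. The replicative helicase subunits MCM2 and MCM6 had 6.68 and 3.55 in germinating tissue, against 19.5 and 10.3 in pre-buds. UHRF1, which carries DNA methylation through replication, had 3.95 in germinating tissue and 20.5 in pre-buds, a log2 difference of -2.12. The checkpoint kinase CHK2 had 4.06 in germinating tissue and 11.6 in pre-buds, and the mitotic kinase AURKA 9.12 and 22.4. Over the whole list the summed level was 343.1 in germinating tissue, 553.8 in pre-buds, 373.1 in dormant, 434.9 in stolon and 561.3 in zooid tissue. Germinating and dormant tissue were the low stages and pre-bud and zooid the high ones.

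Few enzymes of energy metabolism passed 2-fold. Glycolysis, gluconeogenesis and glycogen enzymes had 0 of 17 members at least 2-fold higher and 3 lower, 17.6% beside 10.3%, with a median of -0.58. UGPA, which makes the sugar donor for glycogen, had 28.3 in germinating tissue and 84.9 in pre-buds, beside 121.5 in dormant and 185.6 in stolon tissue. G3P, glyceraldehyde phosphate dehydrogenase, had 120.2 in germinating tissue and 290.5 in pre-buds, and stood between 277.4 and 300.7 in the other stages. GLYG, the primer of glycogen, had 5.40 in germinating tissue and 12.2 in pre-buds, a log2 difference of -1.05, with -0.81 for its whole Trinity gene. Germinating tissue had the lowest summed level of this list, 586.9, against 937.5 in pre-buds, 1361 in dormant and 1440 in stolon tissue.

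Tricarboxylic acid cycle enzymes had a median of -0.52, with 2 of 14 at least 2-fold lower, IDHP and SDHA, or 14.3% beside 10.3%. SDHA, a subunit of succinate dehydrogenase that the lists of cycle and respiratory chain share, had 30.4 in germinating tissue and 63.7 in pre-buds. In oxidative phosphorylation it was the 1 member of 18 past 2-fold, with 8 of 18 above 0 and a median of -0.07, above the -0.19 of human-named members. Fatty acid oxidation and lipid storage had 3 of 27 at least 2-fold lower, 11.1%, near the 10.3% of human-named members, and a median of -0.45. ECHA, the trifunctional enzyme of beta-oxidation, had 6.02 in germinating tissue and 21.3 in pre-buds, a log2 difference of -1.67, and THIL and ACADL differed by -1.25 and -1.20.

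One-carbon and amino acid enzymes held some of the largest differences, with 2 of 31 members at least 2-fold higher and 10 at least 2-fold lower, 32.3% beside 10.3%, and a median of -0.64. With the isoforms of each Trinity gene summed the median was -0.20, near that of human-named members, and 10 of 31 were still at least 2-fold lower. GLYM, the mitochondrial serine hydroxymethyltransferase that feeds the folate cycle, had 12.99 in germinating tissue and 106.7 in pre-buds, a log2 difference of -2.94. Its levels were 16.7 in dormant, 53.1 in stolon and 103.0 in zooid tissue. AL1L2, a mitochondrial enzyme of the same cycle, had 6.34 in germinating tissue and 43.3 in pre-buds, a log2 difference of -2.59. Both were low in germinating and dormant tissue. METH, methionine synthase, differed by -2.34, but by -0.33 for the sum of its Trinity gene. CGL, which makes cysteine, had 18.9 in germinating tissue and 92.8 in pre-buds, a log2 difference of -2.24 that became -1.16 for the gene. HDC, histidine decarboxylase, had 64.0 in germinating tissue and 16.1 in pre-buds, a log2 difference of 1.93. GABT, which breaks down GABA, was named for 2 transcripts of 1 gene, of which one had 62.4 in germinating tissue and 13.7 in pre-buds, the other 29.1 and 53.5, and the whole gene differed by 0.21.

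**Figure D2:**
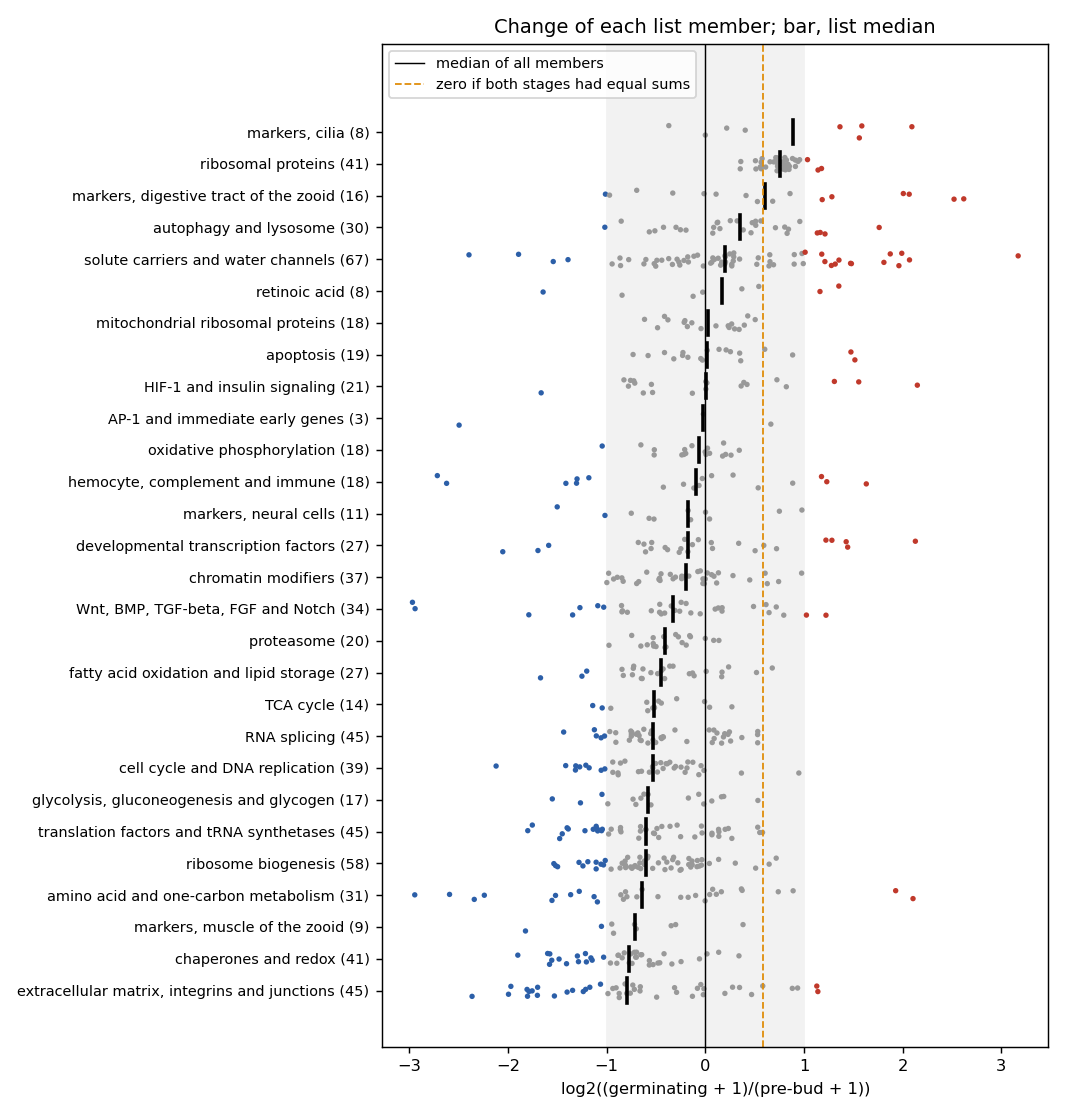
Log2 difference of each measured member of 28 gene and marker lists, log2((germinating + 1)/(pre-bud + 1)), 1 point per transcript, with the number measured in brackets. Red points are at least 2-fold higher, blue at least 2-fold lower and grey within 2-fold; black bars are list medians, the solid line the median of all members and the dashed line the place of zero if both stages had equal sums. List medians ran from -0.80 for extracellular matrix, integrins and junctions to 0.88 for the cilia markers, which came to 0.24 with isoforms summed and turned to -0.42 under equal sums, and other settings put other lists at the ends.

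Chaperones and redox enzymes, which fold proteins and keep their thiols reduced, had 0 of 41 members at least 2-fold higher and 14 at least 2-fold lower, 34.1% beside 10.3%, with 38 below 0 and a median of -0.77. PDIA6, a folding enzyme of the endoplasmic reticulum, had 46.6 in germinating tissue and 176.6 in pre-buds, a log2 difference of -1.90, with 116.7 in dormant, 253.1 in stolon and 124.9 in zooid tissue. BIP, the main chaperone of that compartment, had 91.5 in germinating tissue and 257.6 in pre-buds, and its cofactors DJC10 and DJB11 differed by -1.60 and -1.56. In the cytosol, TCPA, a subunit of the ring chaperonin, had 20.9 in germinating tissue and 64.4 in pre-buds, and DNJA1 had 42.2 and 127.7. Germinating tissue was the lowest of the 5 stages for 30 of the 41.

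The list of matrix, integrin and junction genes had a median of -0.80, with 2 of 45 measured members at least 2-fold higher, 4.44%, and 16 at least 2-fold lower, 35.6% beside 10.3%. CO1A1, a fibrillar collagen, had 81.4 in germinating tissue and 423.3 in pre-buds, a log2 difference of -2.36, beside 127.2 in dormant, 367.2 in stolon and 471.0 in zooid tissue. CO5A1, another fibrillar collagen, had 168.0 in germinating tissue and 588.3 in pre-buds, and COMA1 2.77 and 13.8. MMP14, a membrane protease that cuts matrix, had 5.72 in germinating tissue and 22.2 in pre-buds, and the matrix glycoprotein entries TSP1 and SSPO differed by -1.81 and -1.995. The 2 higher members, singled out after their values were seen, were PGBM, a basement membrane proteoglycan with 22.9 in germinating tissue and 9.87 in pre-buds, and the peroxidase PXDN, with 36.9 and 16.3. Both fell short of 2-fold with a pseudocount of 5 or under equal sums.

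Of 30 lysosome and autophagy genes, 22 lay above 0 and 8 below, with 4 at least 2-fold higher, 13.3% beside 5.21%, and 1 lower. Their median was 0.35, which turned to -0.22 under equal sums, beside -0.59 for all members. NPC2, which carries cholesterol in lysosomes, had 335.1 in germinating tissue and 98.2 in pre-buds, a log2 difference of 1.76, beside 170.3 in dormant and 287.1 in zooid tissue. MLP3A, an LC3 protein of the autophagosome membrane, had 433.4 in germinating tissue and 192.9 in pre-buds, and ATG13, of the complex that starts autophagy, had 88.0 and 39.5. The lysosomal mannosidase MA2B1 differed by 1.21. VATA, a subunit of the proton pump, had 23.8 in germinating tissue and 49.3 in pre-buds. The apoptosis list had a median of 0.02, or -0.56 under equal sums, and 2 of 19 members at least 2-fold higher, 10.5% beside 5.21%. One of the transcripts named BIRC3, an inhibitor of apoptosis, had 6.83 in germinating tissue and 1.82 in pre-buds.

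Solute carriers and water channels had 14 of 67 members at least 2-fold higher, 20.9% beside 5.21%, with 4 lower. Their median was 0.20, which turned to -0.42 under equal sums, beside -0.59 for all members. Next to AQP8, the monocarboxylate carriers MOT4 and MOT5 had 15.1 and 36.9 in germinating tissue, against 2.84 and 8.73 in pre-buds. ZNT1, a zinc exporter, had 9.95 in germinating tissue and 1.76 in pre-buds, a log2 difference of 1.99. Among the 4 lower members, S17A5, a lysosomal sialic acid exporter, had 3.44 in germinating tissue and 22.3 in pre-buds, a log2 difference of -2.40 that turned to 0.35 when the 4 transcripts of its Trinity gene were summed. S22AG, an organic cation and carnitine carrier, differed by -1.89. The remaining 2, S35B1 and S39A7, were singled out after their values were seen and differed by -1.54 and -1.39.

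Complement and hemocyte genes split. Of 18 measured, 3 were at least 2-fold higher, 16.7% beside 5.21%, 6 at least 2-fold lower, 33.3% beside 10.3%, and the median was -0.09. Under equal sums 1 of 18 was at least 2-fold higher and 6 lower, beside 4.31% and 25.4% of all members. The list median was then -0.64, beside -0.59 for all members. The higher ones belonged to the complement cascade, in which the MASP proteases lead to cleavage of C3. CO3, the central component, had 488.2 in germinating tissue and 157.0 in pre-buds for one transcript, a log2 difference of 1.63, and 36.1 and 36.9 for another. MASP2 and 1 of 2 transcripts named MASP1, singled out after their values were seen, had 357.6 and 243.5 in germinating tissue, against 157.6 and 103.2 in pre-buds. The lower ones included PGH1 and LOX5, which make prostaglandins and leukotrienes, with 0.878 and 9.19 in germinating tissue against 11.3 and 26.1 in pre-buds. PLMN, plasminogen, differed by -2.62, and the mannose receptor MRC1 by -1.31. C1QBP, also named after complement, was lower too, by -1.30.

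Retinoic acid is a vitamin A derivative that binds nuclear receptors and patterns the body axis of chordates. Of 8 measured members of its list, 2 were at least 2-fold higher, 25.0% beside 5.21%, and 1 lower, and the median was 0.17, turning to -0.58 under equal sums. The receptor transcripts RARB and RARA come from 1 Trinity gene and are isoforms rather than separate receptors. RARB had 532.9 in germinating tissue and 208.1 in pre-buds, a log2 difference of 1.35, with 179.9 in dormant, 175.3 in stolon and 54.8 in zooid tissue. RARA had 105.0 in germinating tissue and 46.4 in pre-buds, a log2 difference of 1.16. Germinating tissue was the highest stage for both, and neither stayed past 2-fold under equal sums, where their differences were 0.76 and 0.58. CP26A, which degrades retinoic acid, had 1.73 in germinating tissue and 7.53 in pre-buds, a log2 difference of -1.64. The retinol dehydrogenase RDH10 had 11.4 in germinating tissue and 8.59 in pre-buds, and RDH13 and RDHE2 differed by -0.03 and -0.12.

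Developmental transcription factors went both ways, with 5 of 27 at least 2-fold higher, 18.5% beside 5.21%, 3 lower, 11.1% beside 10.3%, and a median of -0.18. The higher share did not hold under other settings. With a pseudocount of 5 it was 3 of 27, and under equal sums 1 of 26, beside 4.31% of all members. HXA3, a Hox protein, had 11.4 in germinating tissue and 1.84 in pre-buds, a log2 difference of 2.13, with 2.31 in dormant, 0.608 in stolon and 12.6 in zooid tissue. AP2A, a factor of ectoderm, had 39.8 in germinating tissue and 14 in pre-buds. FOXH1, a partner of Smad proteins, had 26.8 in germinating tissue and 9.33 in pre-buds, a log2 difference of 1.43, and it was as high in stolons, 26.8, and higher in dormant tissue, 36.4. Its Trinity gene as a whole differed by 0.65, and that of AP2A by 0.96. FLI1 and PRD16, singled out after their values were seen, differed by 1.22 and 1.28. SP8, a factor of outgrowing appendages in vertebrates, had 38.2 in germinating tissue and 161.8 in pre-buds, a log2 difference of -2.05. ETS1 had 9.86 in germinating tissue and 34.2 in pre-buds, and LMX1A 3.10 and 11.3, although its whole Trinity gene differed by -0.44.

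Several factors that the study discusses for germination did not differ by 2-fold from pre-buds. The study's calls for germination drew on comparisons between all pairs of its stages. Germinating tissue against pre-buds alone does not test those calls. NKX23, an NK homeobox entry, had 21.7 in germinating tissue and 22.9 in pre-buds, beside 38.3 in dormant and 34.2 in stolon tissue. GRHL1, a grainyhead factor of epithelia, had 13.8 in germinating tissue and 8.84 in pre-buds, and DLX6, a distal-less factor, had 18.4 and 28.5. In zooids NKX23, GRHL1 and DLX6 had 2.24, 1.64 and 3.965. Under equal sums DLX6 passed 2-fold with a log2 difference of -1.17. Of the genes in the study's gene trees, HIF1A, the oxygen-regulated factor, had 47.1 in germinating tissue and 73.3 in pre-buds, well under its 177.4 in dormant and 228.1 in stolon tissue. The *Ciona* entry Q4H3J9, placed as fos in those trees, had 9.11 in germinating tissue and 50.2 in pre-buds, a log2 difference of -2.34, while its AP-1 partner JUN had 156.0 and 98.1, a log2 difference of 0.66. A transcript placed with NR4A nuclear receptors had 1.95 in germinating tissue and 25.0 in pre-buds, with 114.3 in stolons. Another, named NR4A3, differed by -2.50, or by -0.70 when its Trinity gene was summed.

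In the list of Wnt, BMP, TGF-beta, FGF and Notch genes, signals that pattern tissues, 2 of 34 were at least 2-fold higher, 5.88% beside 5.21%, and 7 lower, 20.6% beside 10.3%. Below 0 lay 23 of the 34, with a median of -0.33, and with a minimum of 1 the split was 25 below and 20 above 0. Among ligands, WNT5A had 5.59 in germinating tissue and 21.8 in pre-buds, a log2 difference of -1.79, and JAG1, which activates Notch, had 4.10 and 11.3. SFRP3, a secreted inhibitor of Wnt ligands, had 0.660 in germinating tissue and 12.0 in pre-buds, a log2 difference of -2.97. TLL1 and TLL2, tolloid proteases that free BMP ligands and trim procollagen, had 3.34 and 9.04 in germinating tissue, against 32.3 and 24.5 in pre-buds. The receptor FGFR2 was on the other side, with 26.7 in germinating tissue and 10.9 in pre-buds, as was APC, a brake on Wnt signaling singled out after its values were seen, with 10.6 and 4.73. Neither of these 2 stayed past 2-fold with a pseudocount of 5 or under equal sums.

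The HIF-1 and insulin list had a median of 0.0042, or -0.58 under equal sums, with 3 of 21 at least 2-fold higher, 14.3% beside 5.21%, and 1 lower. Under equal sums IRS1 alone stayed past 2-fold, and AAKG1 and MKNK2 came to 0.998 and 0.73. IRS1, the docking protein of the insulin receptor, had 17.0 in germinating tissue and 3.07 in pre-buds, a log2 difference of 2.15, beside 15.8 in dormant, 17.8 in stolon and 5.61 in zooid tissue, so that pre-bud was the low stage. AAKG1, a subunit of the energy sensor AMPK, had 27.9 in germinating tissue and 8.85 in pre-buds for one transcript and 8.17 and 14.2 for another. The Trinity gene of the first transcript summed to 115.8 in germinating tissue and 39.0 in pre-buds, a log2 difference of 1.55. MKNK2, a kinase that acts on an initiation factor, had 67.3 in germinating tissue and 26.6 in pre-buds, and the receptor VGFR1 had 2.52 and 10.2.

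**Figure D3:**
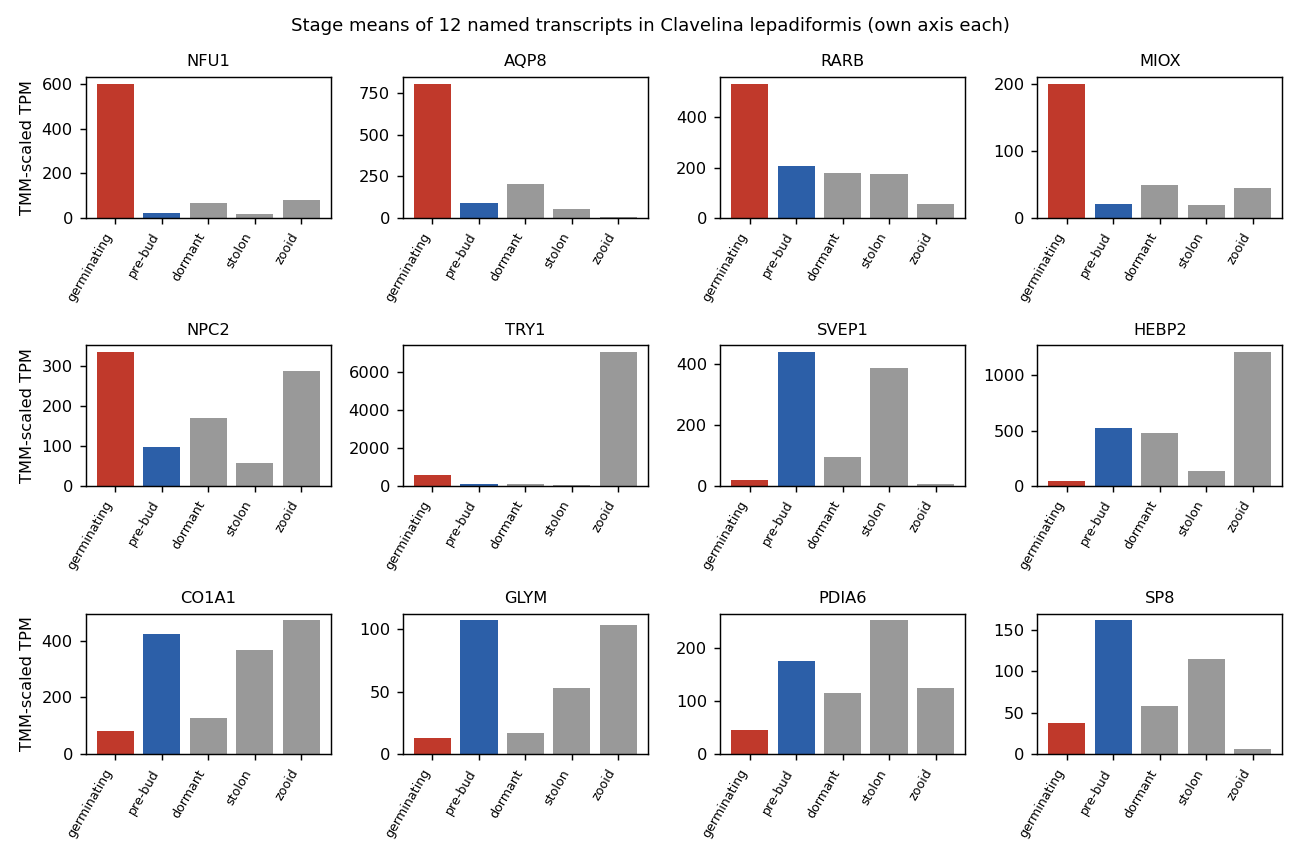
Mean level (TMM-scaled TPM, each panel on its own axis from 0) of 12 named transcripts in germinating tissue (red), pre-buds (blue) and the dormant, stolon and zooid stages (grey), 1 mean per bar with no error available. NFU1, AQP8, RARB and MIOX were highest in germinating tissue, TRY1 and HEBP2 in zooids, and SVEP1 had 437.9 in pre-buds and 386.3 in stolons.

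Markers of zooid tissues were measured beside these groups. Of 87 named cilia transcripts only 8 reached the minimum in either stage. Of these 8, DAAF3, PIFO, IFT57 and IF140 were at least 2-fold higher, 50.0% beside 5.21%, with a list median of 0.88. IF140 reached the minimum in germinating tissue alone, with 5.72 against 1.61 in pre-buds. With a minimum of 1, 5 of 29 were at least 2-fold higher, beside 12.3% of all members. The list median came to 0.47 with a pseudocount of 5, to 0.40 over 29 transcripts with a minimum of 1 and to 0.24 over 17 genes with isoforms summed. It turned to -0.42 under equal sums, beside -0.59 for all members. The summed level of the 8 was 170.0 in germinating tissue, 73.8 in pre-buds and 178.7 in zooids. DAAF3, which assembles dynein arms, had 69.9 in germinating tissue and 15.6 in pre-buds, but it was also 54.6 in dormant tissue and 20.7 in zooids. PIFO had 34.8 in germinating tissue, 10.9 in pre-buds and 51.6 in zooids.

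Digestive markers summed to 1274 in germinating tissue, 749.2 in pre-buds and 7536 in zooids. Without 1 transcript of TRY1, left out after seeing the data, the sums were 672.8 in germinating tissue, 652.0 in pre-buds and 516.8 in zooids, and the zooid was the highest stage for 4 of the 16. The list had 6 of 16 members at least 2-fold higher, 37.5% beside 5.21%, and 1 lower. Its median was 0.60, or -0.06 under equal sums, beside -0.59 for all members. TRY1, a trypsin, had 601.5 in germinating tissue and 97.1 in pre-buds for one transcript, a log2 difference of 2.62, against 7019 in zooids, and 8.46 and 10.9 for another. ACE, a peptidase, had 22.2 in germinating tissue, 3.04 in pre-buds and 119.8 in zooids. CEL2A, an elastase, had 115.3 in germinating tissue and 26.8 in pre-buds for one transcript but 13.4 and 22.4 for another, and was at 4.54 in zooids for the first. Muscle markers summed to 867.3 in germinating tissue and 1736 in pre-buds, with 2 of 9 members at least 2-fold lower, 22.2% beside 10.3%, and a median of -0.72. TAGL3, a transgelin, had 274.7 in germinating tissue and 974.4 in pre-buds, with 746.1 in stolons and 303.0 in zooids, and without it, again after seeing the data, the sums were 592.6 in germinating tissue and 762.0 in pre-buds. Neural markers had 2 of 11 lower, SYT2 and VMAT2, 18.2% beside 10.3%, and a median of -0.17. The part of such tissues in the other differences was not tested.

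The 1252 members at least 2-fold higher mostly peaked in germination among the 5 stages. Germinating tissue was the highest stage for 955 of them, 76.3%, where it was the highest for 28.1% of all members, and the choice of members favours such an order. Dormant tissue was the highest for 109 and the zooid for 117. Of the 1246 lower members, pre-bud was the highest stage for 703, 56.4% beside 19.1% of all members, an order that the choice of members also favours. The stolon, from which pre-buds grow, was the highest for 279, 22.4% beside 18.3% of all members. The median levels of the higher members were 26.4 in germinating tissue, 8.31 in pre-buds, 14.8 in dormant, 9.92 in stolon and 6.76 in zooid tissue, and those of the lower members were 4.45, 17.8, 8.89, 13.9 and 8.61 in the same stages.

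Within 1 Trinity gene, transcripts could go opposite ways. This was so for 28 genes with at least 1 transcript past 2-fold in each direction, 11 of them with a name. In the gene named by PRS33, a serine protease, one transcript had 356.2 in germinating tissue and 55.8 in pre-buds, another 1.03 and 6.33, and the sum was 551.5 and 96.0, a log2 difference of 2.51. In the gene of the *Ciona* entry F6SGF2, one transcript had 37.7 in germinating tissue and 8.37 in pre-buds and another 4.75 and 17.3, while the sums of 61.1 and 62.2 were close. Summing each gene before the ratio left 899 of 9162 genes at least 2-fold higher and 962 lower.

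Germination and pre-bud were also sampled in *P. zorritensis*, a tunicate of another order whose pre-buds are called budding nests and whose dormant forms are spherules. For this species the labels list 3 germinating samples at 18 °C and 3 at 24 °C for 48 h, and 3 pre-bud samples. According to the paper, its spherules came from the field, and its buds were grown in the lab from germinated material of the same rope. Of the ortholog pairs, 2574 reached the minimum in both species. In *C. lepadiformis* 124 of these were at least 2-fold higher, 4.82%, and 281 lower, 10.9%, and in *P. zorritensis* 91 were higher, 3.54%, and 139 lower, 5.40%, or 8.94% in either direction. Higher in both species were 13 pairs, 10.5% of the *C. lepadiformis* list and 14.3% of the *P. zorritensis* list, and lower in both were 26, or 9.25% and 18.7%. In opposite directions went 15 pairs higher in *C. lepadiformis* and lower in *P. zorritensis*, 12.1% of those higher in *C. lepadiformis*, and 22 the other way, 7.83% of those lower in *C. lepadiformis*. No samples are shared between the species, but every transcript of a species shares its 2 stage means.

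Among pairs higher in both, CLD19 had 50.7 in germinating and 0.554 in pre-bud tissue of *P. zorritensis*, a log2 difference of 5.06, and TPPP2 had 15.4 and 1.59. The carboxypeptidase CBPA4, the zinc exporter ZNT1 and the amino acid carrier S38A4 differed by 2.01, 1.99 and 1.28 in *C. lepadiformis* and by 2.44, 2.29 and 1.07 in *P. zorritensis*. Lower in both were HEBP2, with 257.4 in germinating and 1399 in pre-bud tissue of *P. zorritensis*, SVEP1, the fos entry Q4H3J9, CGL, the matrix protein MATN2 and BCAT1, which transaminates branched-chain amino acids. The fos entry differed by -2.34 in *C. lepadiformis* and by -1.83 in *P. zorritensis*.

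Opposite pairs included the fibrillar collagens. CO1A1 differed by -2.36 in *C. lepadiformis* and by 2.89 in *P. zorritensis*, where it had 31.7 in germinating and 3.42 in pre-bud tissue, and CO5A1 by -1.80 and 2.80. TLL1, which trims procollagen, followed the same pattern with -2.94 and 2.74. The myosin light chain entry MYL5 and the transgelin entry TAGL3 differed by -1.38 and -1.82 in *C. lepadiformis* and by 5.60 and 1.12 in *P. zorritensis*. AURKA differed by -1.21 in *C. lepadiformis* and by 1.21 in *P. zorritensis*. With a pseudocount of 5, AURKA and MYL5 fell short of 2-fold in *C. lepadiformis*, at -0.96 and -0.79. MIOX, the lactate-family carrier MOT5 and MKNK2 were higher in *C. lepadiformis* by 3.22, 1.96 and 1.31, and differed by -1.43, -1.28 and -1.22 in *P. zorritensis*.

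The medians of some lists lay on opposite sides of 0 in the 2 species, mostly through differences under 2-fold. Of 34 cell cycle pairs, 32 lay below 0 in *C. lepadiformis*, with a median of -0.55, and 30 lay above 0 in *P. zorritensis*, with a median of 0.58 and 5 of 34 at least 2-fold higher. Of 20 proteasome pairs, 18 lay below 0 in *C. lepadiformis* and 20 above 0 in *P. zorritensis*, and of 14 pairs of the tricarboxylic acid cycle 12 and 14 did so. No proteasome pair passed 2-fold in either species, and none of the cycle did in *P. zorritensis*. Of all pairs, 15.7% passed it in *C. lepadiformis* and 8.94% in *P. zorritensis*. Over all 2574 pairs, 60.2% lay below 0 in *C. lepadiformis* and 53.3% above 0 in *P. zorritensis*. With the stages of each species at equal sums these 3 lists had medians of -1.05, -0.98 and -1.09 in *C. lepadiformis* and of 0.45, 0.43 and 0.21 in *P. zorritensis*, where the medians of all pairs were -0.73 and -0.11. Ribosomal proteins, at 0.75 in *C. lepadiformis*, had a median of 0.14 in *P. zorritensis*, which turned to -0.02 under equal sums. No replicate error stands behind these differences between the species.

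**Figure D4:**
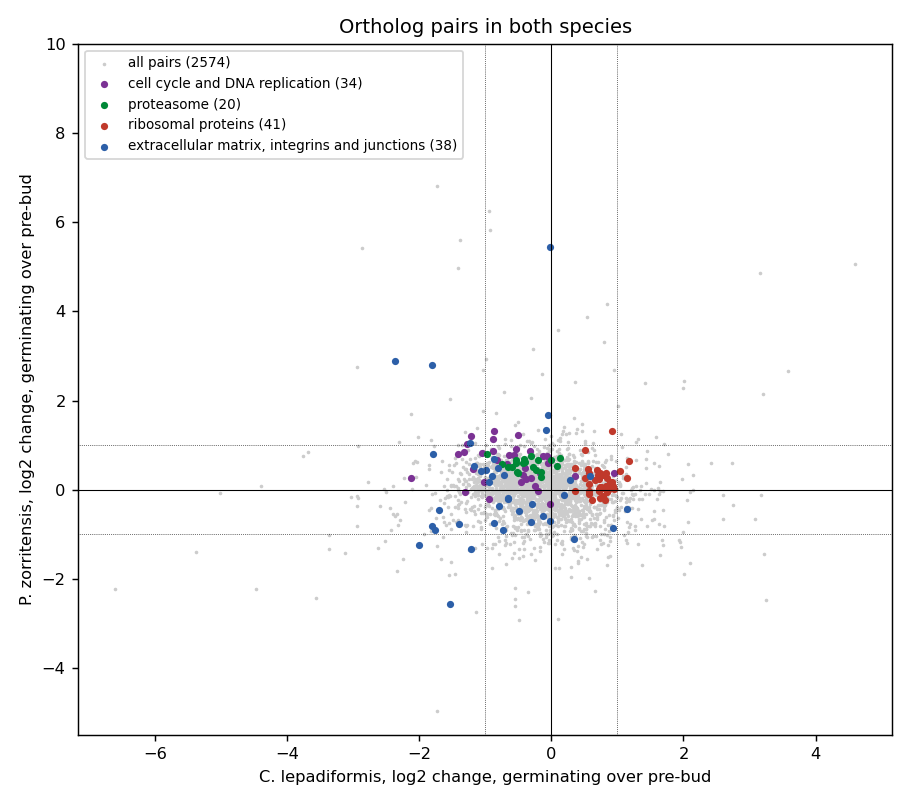
Log2 difference in *P. zorritensis* (vertical) against difference in *C. lepadiformis* (horizontal), both log2((germinating + 1)/(pre-bud + 1)), for 2574 ortholog pairs, 1 point per pair, with dotted lines at 2-fold. Purple cell cycle pairs lie mostly left of and above 0, with medians of -0.55 and 0.58, green proteasome pairs likewise, and red ribosomal protein pairs to the right with a median of 0.75 in *C. lepadiformis*. Blue points are the 38 pairs of matrix, integrin and junction genes.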

How the data were processed

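RNA of 36 samples was sequenced by the authors as paired reads of 150 bp. Before assembly with Trinity, reads passed through Rcorrector, Trim Galore and a Bowtie2 screen for ribosomal RNA, and the authors left out assembled transcripts under 5 TPM. The authors quantified transcripts with Kallisto 0.46.0 as TPM, scaled them by TMM and deposited 1 mean signal per transcript and stage. These means are length-scaled levels, not counts, and no value per replicate was analysed here. The deposited table of ortholog pairs (reciprocal best hits) gave transcript IDs and entry names, and 42 names came from the *P. zorritensis* column. Its columns of the authors' own calls, the stages in which a pair was called up or down, were not used.

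The difference was log2 with a pseudocount of 1, over members with at least 5 in the higher stage, counted at 2-fold. Calculations used Python 3.11.15, numpy 2.4.6, pandas 2.3.3, scipy 1.17.1 and matplotlib 3.10.9, and were tested on simulated data. No test was possible between single means.

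The members and the 28 lists were chosen with earlier results of these data known. Named are the 10 named transcripts with the largest and the 10 with the smallest change, up to 6 members per list past 2-fold, germination factors the study discusses, the 10 most abundant, ortholog pairs past 2-fold in both species, genes with opposed isoforms, and 2 unnamed transcripts per direction. Genes of the study's trees were added outside this rule. Which of these stand in the text was decided after their values were seen. Alternatives were other pseudocounts, minimums and scalings, and transcripts summed per Trinity gene.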

Additional observations from a re-analysis of the deposited data

How the results depend on the processing

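No paired analysis was possible because each stage is 1 mean, and no replicate could be left out for the same reason. Against 1252 higher and 1246 lower members, a pseudocount of 5 gave 805 and 772, and a minimum of 1 gave 1994 higher. Equal sums gave 524 and 3091, so that 14.5% of calls were higher in place of 50.1%, and a median of -0.59. Among list shares at least 2-fold lower, a pseudocount of 5 moved cell cycle to 7.69% and oxidative phosphorylation, retinoic acid, lysosome, digestive and neural lists to 0%, and Wnt and matrix lists to 0% higher. A minimum of 10 moved cell cycle to 40.0% lower and retinoic acid and AP-1 genes to 0% lower. Summed isoforms moved AP-1 genes to 0% lower. The shares under equal sums stand beside those of all members, not of human-named members alone. Under equal sums 25.4% of all members were at least 2-fold lower, and the lower share moved to 55.8% for cell cycle, 55.9% for ribosome biogenesis, 59.6% for translation, 60% for splicing, 45% for proteasome, 55.6% for glycolysis, 71.4% for the TCA cycle, 46.4% for fatty acid oxidation, 54.5% for amino acids, 42.9% for HIF-1 and insulin, 30.8% for transcription factors, 82.9% for chaperones, 63% for matrix, 20.6% for solute carriers and 27.5% for chromatin. Beside 4.31% of all members, the higher share moved to 0% for ribosomal proteins, retinoic acid, Wnt and matrix lists, 3.85% for transcription factors, 3.33% for lysosome and 8.82% for solute carriers. Of the single transcripts, S17A5 turned from -2.40 to 0.35 with isoforms summed. A list share counted as moved when it left the 95% exact binomial interval of its main value, which covers the number of members and no replicate error. Over all alternatives 66 values of single transcripts dropped below 2-fold, 1 passed it and 1 turned its sign.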
